A study of Homo sapiens with 13 samples.

Results

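The genes described here are 32 genes of megakaryocyte and platelet function, given by symbol, out of the 58581 genes in the count table of the series. All 32 were in that table, and 30 of them passed the filter on low counts and could be tested. They comprise 13 receptors for adhesion and aggregation, 2 signalling receptors, 10 granule or secreted proteins, 2 enzymes of thromboxane synthesis, and 5 proteins of the cytoskeleton, integrin activation and secretion. They were followed in HEL cells, a human erythroleukemia line, that stably expressed the splicing factor SRSF2 from a doxycycline-controlled construct. The construct was either wild type (WT) or carried P95H, a substitution recurrent in myelodysplastic syndromes, and nothing in the labels describes a change to the line's own SRSF2 gene. HEL cells are known to carry an activating JAK2 mutation, which all groups share. RNA-seq after rRNA depletion covered 2 WT and 2 P95H samples given doxycycline at 1 µg/ml for 48 hours, and 1 P95H sample labelled uninduced, which the file header gives as without doxycycline. HITS-CLIP, in which RNA crosslinked to the Flag-tagged SRSF2 is recovered and sequenced, covered 4 WT and 4 P95H samples given the same dose for 36 hours. All groups came from 1 cell line, and the sources used here do not say whether clones or pools of transduced cells were grown. Numbered samples are biological replicates per the labels, which do not say how cultures were kept apart. The p-values therefore rest only on the spread between these samples, which may be technical and is estimated partly over all genes together.

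Megakaryocytes are the bone marrow cells that shed platelets. They build in advance what a platelet will carry: surface receptors that bind collagen, von Willebrand factor and fibrinogen, granules loaded with adhesive proteins and chemokines, and a cytoskeleton of dedicated tubulin and actin-linked proteins that drives platelet release and shape change. On activation, the integrin formed by the ITGA2B and ITGB3 products binds fibrinogen and links platelets to each other, while released granule contents and thromboxane recruit further platelets. HEL cells are known to express both erythroid and megakaryocytic genes.

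The RNA-seq libraries held 37414093 to 45005605 counts, so that 3 counts corresponded to 0.0667 to 0.0802 CPM (counts scaled to the library total). SRSF2, for which the counts do not separate the line's own gene from the construct, stood at 222 and 241 CPM in WT replicates 1 and 2, at 223 and 252 CPM in P95H replicates 1 and 2, and at 285 CPM in the one labelled uninduced. It was highest in that last library, so its level does not check the label. The 13 mitochondrially encoded protein genes took 1.38% of counts in both replicate 1 libraries, against 4.50% and 4.30% in the WT and P95H replicate 2 libraries and 4.14% in the uninduced one. The replicate number therefore marks 2 sets of libraries that differ beyond genotype, and genotypes were compared on group alone, within each pair of same-numbered libraries, and in a fit that holds the replicate number as a term. Of 12 megakaryocyte and platelet markers, 10 exceeded 1 CPM in every library, and their summed level was 837 to 1241 CPM. The 12 erythroid markers summed to 268 to 499 CPM and the 8 endothelial markers, several of which megakaryocytes share, to 374 to 555 CPM. The 7 myeloid markers summed to 129 to 180 CPM, and the fibroblast and lymphoid markers to at most 5.17 and 2.12 CPM.

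GP1BB, a subunit of the von Willebrand factor receptor, had 0 counts in all 5 libraries, and PF4, the granule chemokine platelet factor 4, had 2 counts in the library labelled uninduced and none elsewhere. GP1BB overlaps SEPT5 on the same strand, and the part of that overlap in its counts was not tested. These 2 genes did not pass the filter and enter no comparison. The labels do not say whether counting used strand, and 14 of the 32 genes overlap a counted gene on the opposite strand. Among them are TBXAS1 with HIPK2 and TGFB1 with HNRNPUL1. Of the genes called lower in P95H below, TUBB1 overlaps ATP5E in this way, ITGB3 overlaps THCAT158 and PLEK overlaps AC015969.3. Reads of such pairs may not be told apart. In bulk RNA a lower level cannot be told apart between fewer cells expressing a gene and less RNA per cell.

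Promoters are shown for a gene of each pattern described below: THBS1, lower in P95H within both pairs, and ITGA2B, highest in the library labelled uninduced. Each line gives the 250 bases before the RefSeq start (GRCh38.p14), 5′ to 3′ on the strand of the gene. The THBS1 promoter lies at chr15:39580829-39581078 on the plus strand and that of ITGA2B at chr17:44389650-44389899 on the minus strand. Capitals mark matches, on either strand, to GATAA or GATAG (letters bound by GATA factors), AGGAAG (ETS factors) and TGANTCA (AP-1 and NF-E2 factors).

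THBS1: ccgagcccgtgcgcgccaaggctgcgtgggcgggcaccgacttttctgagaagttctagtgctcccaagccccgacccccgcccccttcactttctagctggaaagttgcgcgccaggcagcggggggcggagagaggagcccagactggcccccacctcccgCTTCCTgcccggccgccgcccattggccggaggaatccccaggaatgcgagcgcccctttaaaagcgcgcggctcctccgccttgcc
ITGA2B: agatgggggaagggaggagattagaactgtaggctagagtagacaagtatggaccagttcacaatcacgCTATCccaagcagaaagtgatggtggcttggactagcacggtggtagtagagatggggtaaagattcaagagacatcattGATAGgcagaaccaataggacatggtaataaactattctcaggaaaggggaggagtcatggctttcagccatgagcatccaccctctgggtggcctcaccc

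THBS1 held 1 AGGAAG match, starting 87 bases before the RefSeq start, and ITGA2B held 2 GATAG matches, 181 and 101 bases before it. For ITGA2B the RefSeq start lies upstream of the gene position used for the counts. The window ends at 44389650 and that gene position begins at 44389505, and the bases between were not searched. Over all 35116 RefSeq promoters of that length, 20.4% held GATAA, 15.9% GATAG, 28.7% AGGAAG and 6.57% TGANTCA. The same windows of PLEK and TUBB1 held none of these letters. Of the 32 genes, 25 were matched in the promoter table. A match is a description of letters and not a bound site.

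P95H was first compared with WT among the doxycycline-treated libraries. On group alone, no gene differed by the quasi-likelihood test of edgeR (p adjusted by Benjamini-Hochberg): 0.0% of 22007 tested genes passed in either direction, 227 had an unadjusted p under 0.05, and of the 30 platelet genes 0 passed and 1 had an unadjusted p under 0.05. DESeq2 on group alone also called 0 of the 30, with 2 at an unadjusted p under 0.05. The median log2 change of the 30 genes was -0.15 and 24 of them were negative, beside a median of 0.00 and 49.5% negative over all tested genes. Without the filter on low counts the same test called CLU, ITGB3 and THBS1 lower (0.0334% of 38948 genes) and 0 of the genes higher (0.00514%).

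With the replicate number as a term, 5 of the 30 genes fell and 0 rose. They were ITGB3, THBS1, CLU, TUBB1 and PLEK. Over all tested genes 0.195% were called lower and 0.186% higher in that fit. An unadjusted p under 0.05 was found for 13 of the 30 genes, beside 1859 of all 22007 tested genes. This fit has 1 residual degree of freedom among samples, so its standard errors and p-values rest largely on a spread estimated over all genes. They carry little of the difference between the 2 pairs of a gene. For CLU the pairs were -0.44 and -0.78, beside a standard error of 0.08. DESeq2 with the replicate number called 4 of these 5 lower, all but TUBB1 (adjusted p = 0.50). Over all genes it called 10 lower and 1 higher, 0.0257% and 0.00257% of the 38948 genes with any count. It gave no adjusted p to part of those genes, GP5 and F13A1 among them, so the shares of genes it tested are higher than these. Without the filter on low counts edgeR called VWF as well, 6 lower in all and 0 higher, where 0.164% of genes were called lower and 0.198% higher. By role, the fallen genes were 1 of 12 tested receptors for adhesion and aggregation, 2 of 9 granule or secreted proteins, and 2 of 5 proteins of the cytoskeleton, integrin activation and secretion. Neither of the signalling receptors and neither of the thromboxane enzymes passed.

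ITGB3 (chr17:47253846-47311816, plus strand) encodes the beta-3 subunit of the fibrinogen receptor. It stood at 113 and 193 CPM in WT replicates 1 and 2, at 72.8 and 125 CPM in P95H replicates 1 and 2, and at 118 CPM in the one labelled uninduced. P95H was lower than WT within each pair, by nearly the same amount, but P95H replicate 2 lay above WT replicate 1, so the groups overlapped. The fitted log2 change was -0.62 ± 0.08 (SE) with the replicate number (edgeR adjusted p = 4.72e-06), and the within-pair differences were -0.63 in each. On group alone it was -0.62 ± 0.32 (SE), and it ranged from -1.07 without P95H replicate 2 to -0.19 without WT replicate 2.

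ITGA2B (chr17:44372180-44389505, minus strand) encodes the alpha-IIb partner of that receptor. It stood at 523 and 504 CPM in WT, at 529 and 592 CPM in P95H, and at 808 CPM in the one labelled uninduced. Both P95H libraries lay above both WT libraries, by 0.02 in pair 1 and 0.23 in pair 2 on the log2 scale, and the fit with the replicate number gave 0.14 ± 0.08 (SE), which did not pass (edgeR adjusted p = 0.67). The genes for the receptor's 2 subunits thus had fitted differences of opposite sign, and only that of ITGB3 passed the test. The difference between the 2 was not tested.

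The von Willebrand factor receptor was represented by GP1BA, its ligand-binding subunit, by GP9 and by GP5. GP1BA stood at 21.03 and 24.1 CPM in WT, 25.9 and 30.7 CPM in P95H, and 36.2 CPM in the one labelled uninduced. Every P95H library exceeded every WT library. The pairs stood at 0.30 and 0.35 on the log2 scale. The fitted log2 change was 0.34 ± 0.15 (SE) on group alone and 0.34 ± 0.10 with the replicate number, where it did not pass over all genes (edgeR adjusted p = 0.14). GP9 had 20.6 and 14.3 CPM in WT, 14.98 and 16.0 CPM in P95H, and 21.9 CPM in the one labelled uninduced. Its groups overlapped and its pairs differed in sign, at -0.46 and 0.16. GP5 stayed between 2.504 and 2.98 CPM in all 5 libraries.

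The collagen receptors did not pass between the genotypes. GP6, the platelet collagen receptor that signals through an associated Fc receptor chain, had 63.4 and 59.8 CPM in WT, 64.1 and 64.1 CPM in P95H, and 70.0 CPM in the one labelled uninduced. ITGA2, the collagen-binding integrin alpha-2, had 19.8 and 18.5 CPM in WT, 15.5 and 17.3 CPM in P95H, and 20.9 CPM in the one labelled uninduced. The groups did not overlap for either gene, GP6 being higher in P95H and ITGA2 lower, and neither passed in the fit with the replicate number (edgeR adjusted p = 0.90 and 0.61). CD36, a receptor for thrombospondin and fatty acids, had 4.74 and 13.4 CPM in WT, 5.398 and 11.9 CPM in P95H, and 13.8 CPM in the one labelled uninduced. Its replicate 1 libraries were the lowest of both genotypes, and its pairs stood at 0.18 and -0.17.

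The other surface proteins did not pass between genotypes. PEAR1, a receptor that signals at platelet contacts, had 66.7 and 95.4 CPM in WT, 62.5 and 102 CPM in P95H, and 121 CPM in the one labelled uninduced. The tetraspanin CD9 had 42.9 and 46.4 CPM in WT, 31.7 and 45.6 CPM in P95H, and 49.8 CPM in the one labelled uninduced. In both genes the groups overlapped. SELP, the granule-membrane selectin that reaches the surface on activation, had 16.6 and 6.15 CPM in WT, 17.9 and 7.93 CPM in P95H, and 10.1 CPM in the one labelled uninduced. TREML1, a receptor of the same granule membrane, had 11.96 and 12.2 CPM in WT, 10.2 and 13.6 CPM in P95H, and 13.2 CPM in the one labelled uninduced. Both genes were split by replicate number. SELP was higher in both replicate 1 libraries than in both replicate 2 libraries, and TREML1 was higher in both replicate 2 libraries by a smaller difference that did not pass.

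Of the signalling receptors, the thrombin receptor F2R had 187 and 258 CPM in WT, 178 and 189 CPM in P95H, and 177 CPM in the one labelled uninduced. WT replicate 2 stood above the other 4 libraries, and the pairs were at -0.07 and -0.45. The fitted log2 change with the replicate number was -0.25 ± 0.08 (SE) and did not pass (edgeR adjusted p = 0.25). P2RX1, an ATP-gated channel, stayed between 4.59 and 5.68 CPM.

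**Figure D1:**
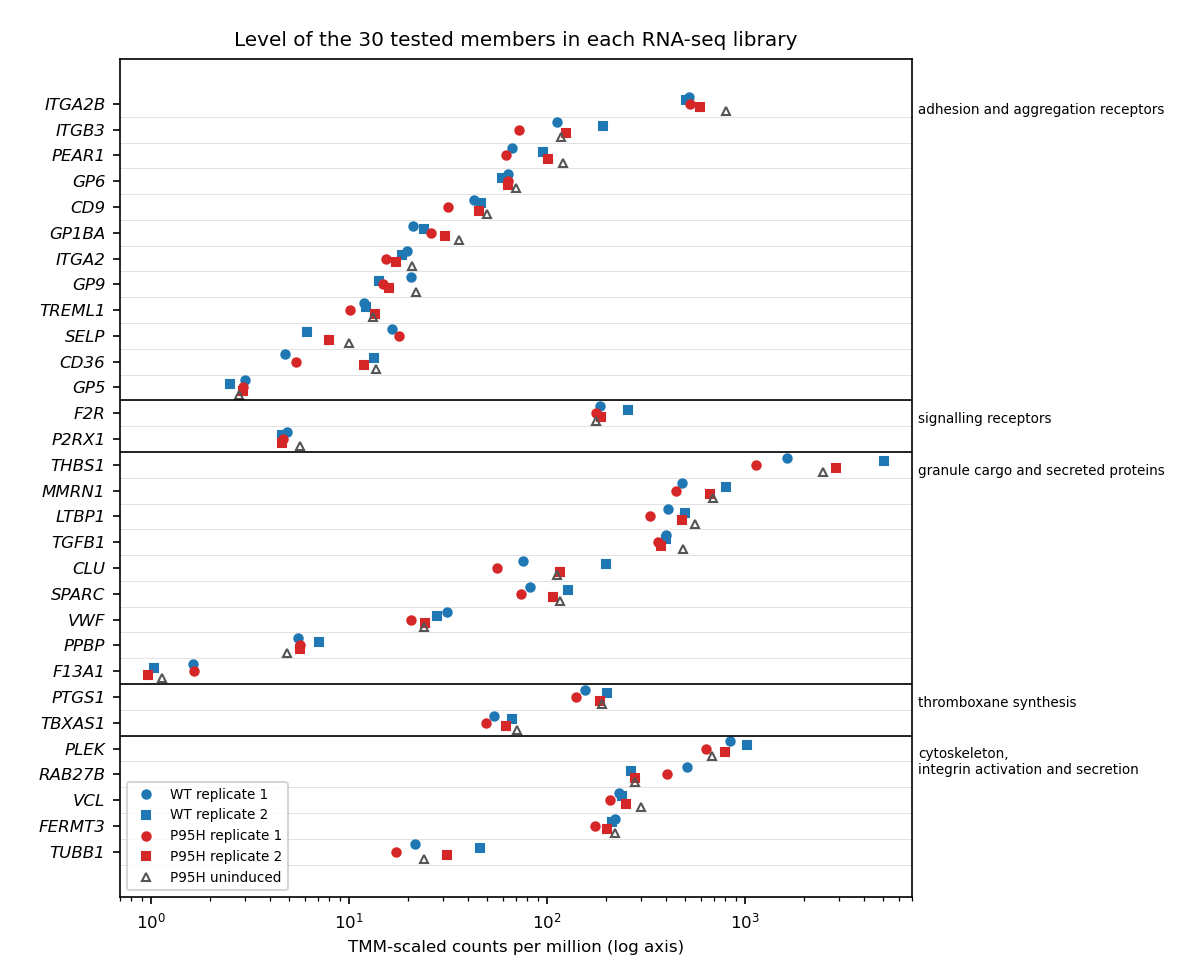
TMM-scaled CPM (log axis) of the 30 tested genes in each of the 5 RNA-seq libraries, ordered by role, with circles for replicate 1, squares for replicate 2 and triangles for the library labelled uninduced. Levels are not scaled by transcript length, so genes cannot be ranked against each other; in THBS1, CLU, TUBB1 and ITGB3 each red point lies left of the blue point of the same shape.

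The plot of levels by library shows the granule and secreted proteins, of which THBS1 and CLU were spread most widely across libraries. THBS1 (chr15:39581079-39599466, plus strand) encodes thrombospondin 1, an adhesive glycoprotein of platelet alpha granules. It stood at 1630.1 and 5036 CPM in WT, at 1138 and 2895 CPM in P95H, and at 2481 CPM in the one labelled uninduced. The replicate 2 libraries were the highest of each genotype, P95H was lower within each pair, and the groups overlapped. The fitted log2 change with the replicate number was -0.65 ± 0.08 (SE; edgeR adjusted p = 5.14e-06), with pairs at -0.52 and -0.80. On group alone its change was -0.72 ± 0.60 (SE), and without WT replicate 2 it was 0.31.

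CLU, which encodes the secreted chaperone clusterin, also an alpha granule protein, followed the same order of libraries. It had 76.1 and 199.5 CPM in WT, 56.2 and 117 CPM in P95H, and 112 CPM in the one labelled uninduced. P95H was lower within each pair, at -0.44 and -0.78 on the log2 scale, and the groups overlapped. The fitted log2 change with the replicate number was -0.60 ± 0.08 (SE; edgeR adjusted p = 2.54e-05). On group alone it was -0.66 ± 0.50 (SE), and without WT replicate 2 it was 0.18.

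VWF, the adhesive protein that tethers platelets to collagen, had 31.2 and 28.1 CPM in WT, 20.5 and 24.2 CPM in P95H, and 24.005 CPM in the one labelled uninduced. All 3 P95H libraries, the uninduced one among them, lay below both WT libraries. The pairs stood at -0.60 and -0.21 on the log2 scale. The log2 change was -0.40 ± 0.14 (SE) on group alone and -0.40 ± 0.10 with the replicate number, where it did not pass over all genes (edgeR adjusted p = 0.073) but passed without the filter on low counts (edgeR adjusted p = 0.0318).

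The remaining secreted proteins did not pass between genotypes. MMRN1, a factor V-binding granule protein, had 480.3 and 808 CPM in WT, 449 and 665 CPM in P95H, and 690.3 CPM in the one labelled uninduced. SPARC, a matricellular protein, had 82.0 and 129 CPM in WT, 74.6 and 107 CPM in P95H, and 116 CPM in the one labelled uninduced. LTBP1, which binds latent TGF-beta, had 412 and 498 CPM in WT, 334 and 481 CPM in P95H, and 561 CPM in the one labelled uninduced. In these 3 genes P95H was lower within each pair, the replicate 2 libraries were higher than the replicate 1 libraries, and the genotypes overlapped. TGFB1, the growth factor itself, had 400.5 and 399.6 CPM in WT, 364 and 379 CPM in P95H, and 486 CPM in the one labelled uninduced. Its groups did not overlap, the log2 change was -0.10 ± 0.07 (SE), and it did not pass (edgeR adjusted p = 0.82). The chemokine precursor PPBP ranged from 4.91 to 7.09 CPM and the factor XIII subunit F13A1 from 0.969 to 1.65 CPM.

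Both thromboxane genes were slightly lower in P95H within each pair. PTGS1, the cyclooxygenase of platelets, had 156 and 203 CPM in WT, 141 and 185 CPM in P95H, and 190.3 CPM in the one labelled uninduced. TBXAS1, thromboxane synthase, had 54.3 and 66.5 CPM in WT, 49.2 and 62.1 CPM in P95H, and 70.6 CPM in the one labelled uninduced. The differences with the replicate number were -0.13 ± 0.07 and -0.11 ± 0.08 (SE) on the log2 scale and did not pass (edgeR adjusted p = 0.69 and 0.81).

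PLEK and TUBB1 were the genes of the last role that fell. PLEK (chr2:68365173-68397453, plus strand) encodes pleckstrin, the major substrate of protein kinase C in platelets. It had 843 and 1027 CPM in WT, 639 and 793 CPM in P95H, and 684 CPM in the one labelled uninduced. Every P95H library, the uninduced one among them, lay below both WT libraries. PLEK was the only gene of the 5 that fell whose doxycycline groups did not overlap. Its log2 change was -0.38 ± 0.07 (SE) with the replicate number (edgeR adjusted p = 0.00766), with pairs at -0.40 and -0.37. On group alone it was -0.37 ± 0.16 (SE), and it ranged from -0.55 without P95H replicate 2 to -0.23 without WT replicate 2 or P95H replicate 1.

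TUBB1 (chr20:59019254-59026654, plus strand) encodes the beta-1 tubulin of the platelet marginal band. It had 21.6 and 46.3 CPM in WT, 17.3 and 31.2 CPM in P95H, and 24.1 CPM in the one labelled uninduced. P95H was lower within each pair, at -0.32 and -0.57, and the groups overlapped. Its log2 change with the replicate number was -0.44 ± 0.10 (SE; edgeR adjusted p = 0.0221). On group alone it was -0.47 ± 0.41 (SE), and without WT replicate 2 it was 0.17. TUBB1 held 5813 counts over the 5 libraries, and ATP5E, which overlaps it on the opposite strand, held 20897. The part of that overlap in the counts of TUBB1 was not tested.

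FERMT3, the kindlin that activates platelet integrins, had 222 and 215 CPM in WT, 175 and 201 CPM in P95H, and 221 CPM in the one labelled uninduced. VCL, which encodes the actin-linking protein vinculin, had 231 and 241 CPM in WT, 209.6 and 253 CPM in P95H, and 299 CPM in the one labelled uninduced. RAB27B, a GTPase of granule release, had 509.8 and 268 CPM in WT, 406 and 279 CPM in P95H, and 278 CPM in the one labelled uninduced. The genotypes did not overlap in FERMT3, where P95H was lower, and overlapped in VCL and RAB27B. None of the 3 passed in the fit with the replicate number, where FERMT3 had a log2 change of -0.21 ± 0.08 (SE; edgeR adjusted p = 0.37).

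Within the pairs, 16 of the 30 genes were lower in P95H in both, against 27.6% of all tested genes, and 4 were higher in both, against 26.6%. The 4 were GP1BA, GP6, ITGA2B and SELP. The summed erythroid markers were lower in P95H within both pairs, at 268 against 298 CPM and 430 against 499 CPM, and so were the endothelial markers, at 374 against 432 CPM and 477 against 503 CPM. The summed myeloid markers were higher, at 158 against 139 CPM and 146 against 129 CPM. Most of that sum was CD33 alone, at 143 against 123 CPM in pair 1 and 134 against 118 CPM in pair 2. LYZ was lower in P95H in pair 1, at 10.0 against 11.4 CPM, and higher in pair 2, at 7.21 against 6.84 CPM. Their part in the differences of the platelet genes was not tested. The summed megakaryocyte and platelet markers differed in sign between the pairs. They were lower in P95H in pair 1, at 837 against 890 CPM, and higher in pair 2, at 997 against 985 CPM. Most of that sum was ITGA2B, at 529 against 523 CPM in pair 1 and 592 against 504 CPM in pair 2. The median within-pair difference of the 30 genes was -0.14 in pair 1, with 23 negative, and -0.096 in pair 2, with 19 negative. Over all tested genes the medians were -0.0057 in pair 1 and -0.00012 in pair 2. The groups did not overlap in 5 genes that were lower in P95H (FERMT3, ITGA2, PLEK, TGFB1 and VWF; 12.2% of all tested genes) and in 3 that were higher (GP1BA, GP6 and ITGA2B; 12.1%). Adding the uninduced P95H library to the P95H side left PLEK and VWF below both WT libraries (7.55% of all tested genes) and GP1BA, GP6 and ITGA2B above them (8.37%).

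**Figure D2:**
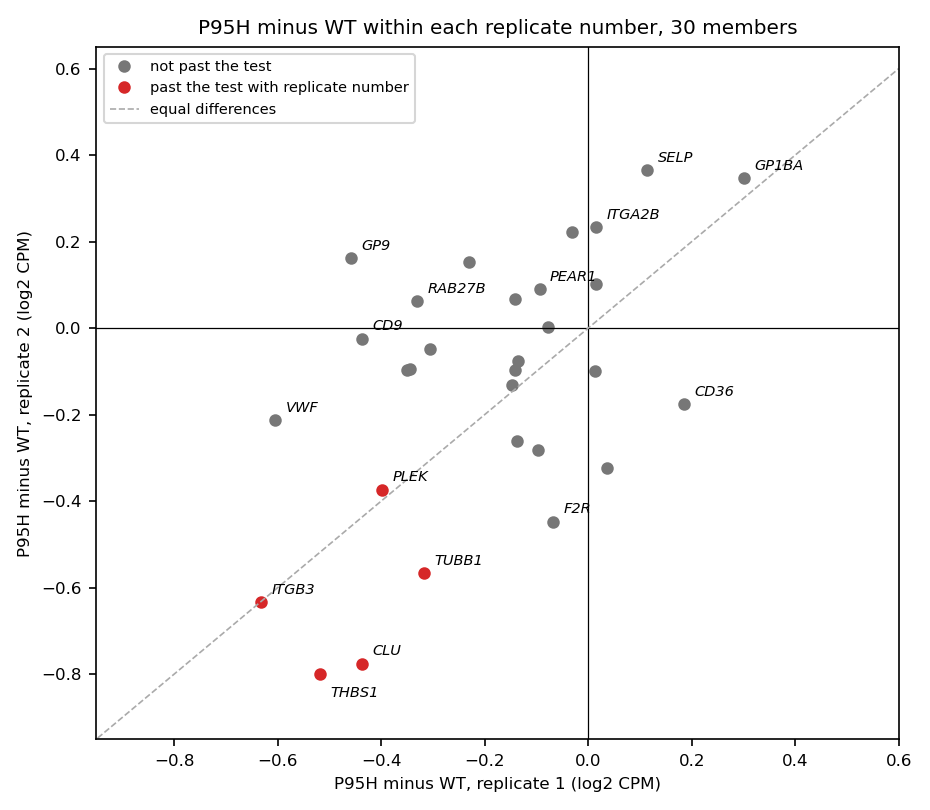
Difference in log2 CPM between P95H and WT in the replicate 1 pair (x axis) and the replicate 2 pair (y axis) for the 30 tested genes, with the 5 genes past the test with the replicate number in red. The 16 genes of the lower left quadrant were lower in P95H in both pairs; ITGB3 and PLEK lie close to the line of equal differences, and CLU, THBS1 and TUBB1 lie below it, with the larger difference in pair 2.

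The plot of within-pair differences also separates genes whose 2 pairs differed in sign. GP9 and RAB27B were lower in P95H in pair 1 only, at -0.46 and -0.33, and stood at 0.16 and 0.06 in pair 2. CD36 went the other way, at 0.18 and -0.17. None of these genes passed in the fit with the replicate number.

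The replicate numbers were compared next, in the fit that also holds the genotype. Between replicate 2 and replicate 1, 14 of the 30 genes were higher and 2 lower in the quasi-likelihood test of edgeR (p adjusted by Benjamini-Hochberg), where 10.3% and 8.87% of all tested genes were called. The median log2 difference of the 30 genes was 0.22, beside -0.01 over all tested genes. In 22 of the 30 genes the replicate difference was larger in size than the genotype difference of the same fit. The share of all tested genes with this order was not counted. Over all 22007 tested genes that fit called 4226 between replicate numbers and 84 between genotypes, so larger replicate differences are not particular to the platelet genes. The 12 erythroid markers moved with the replicate number too, from 298 to 499 CPM in WT and from 268 to 430 CPM in P95H in summed level, and so did the mitochondrial share given above. Their part in these differences was not tested.

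The genes higher in replicate 2 were led by THBS1, with a log2 difference of 1.49 ± 0.08 (SE; edgeR adjusted p = 4.12e-17), CD36 with 1.32 ± 0.14 (adjusted p = 5.83e-09) and CLU with 1.22 ± 0.08 (adjusted p = 1.87e-14). TUBB1, ITGB3, MMRN1, PEAR1 and SPARC followed with 0.98, 0.78, 0.66, 0.61 and 0.59. LTBP1, PTGS1, CD9, TBXAS1, PLEK and F2R passed with smaller differences of 0.40 to 0.27. SELP was lower in replicate 2 by a log2 difference of -1.30 ± 0.13 (SE; edgeR adjusted p = 4.66e-10) and RAB27B by -0.74 ± 0.08 (adjusted p = 9.48e-09). By role, 5 of the 9 tested granule or secreted proteins passed, all of them higher in replicate 2. SELP was the 1 lower gene among the receptors for adhesion and aggregation, and RAB27B the 1 among the genes of the cytoskeleton, integrin activation and secretion.

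Without regard to a test, both replicate 2 libraries lay above both replicate 1 libraries in 15 of the 30 genes (27.7% of all tested genes) and below them in 4 (29.2%), which were F13A1, P2RX1, RAB27B and SELP. GP1BA, GP6, ITGA2, TGFB1, VWF and FERMT3 did not pass between replicate numbers, and their log2 replicate differences lay between -0.04 and 0.22. ITGA2B, at 0.05 ± 0.08 (SE), was in this group as well, while its partner ITGB3 stood at 0.78 ± 0.08.

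**Figure D3:**
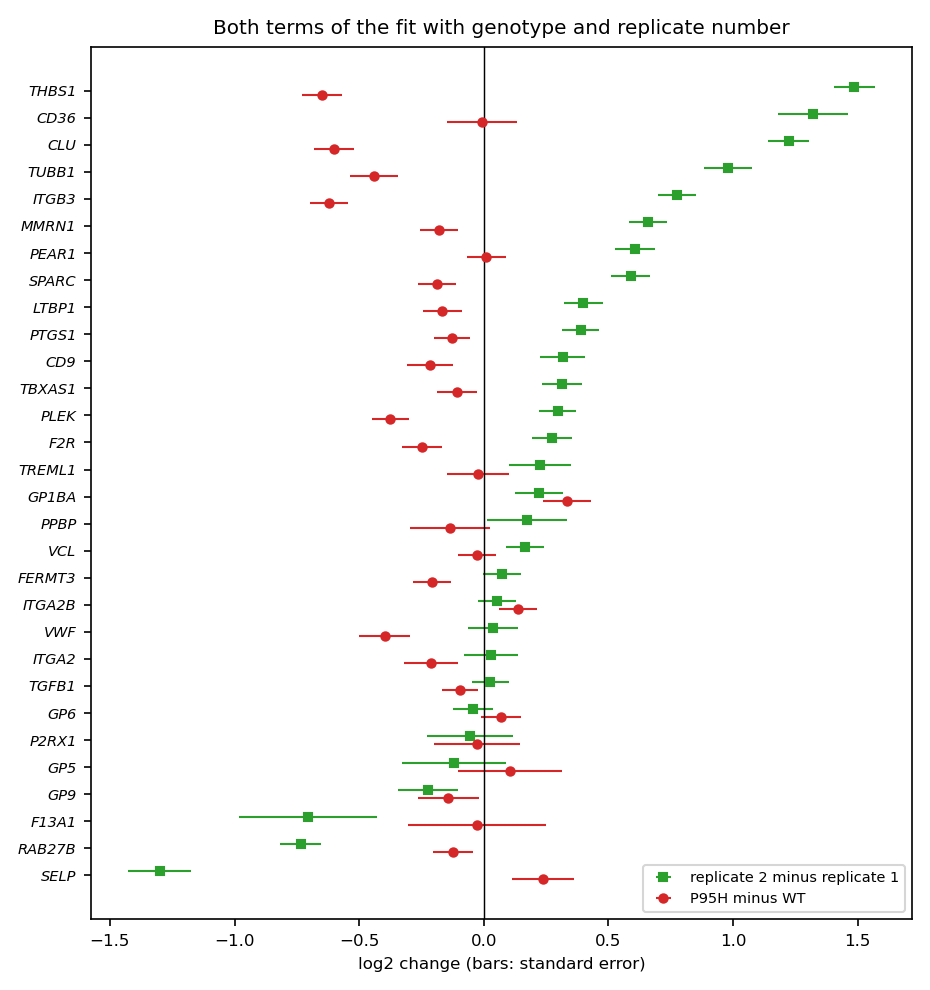
log2 difference between replicate 2 and replicate 1 (green squares) and between P95H and WT (red circles) for each of the 30 genes, both from the fit with genotype and replicate number, with standard errors as bars. THBS1, CD36 and CLU have the largest positive replicate differences, above 1, and SELP the largest negative one, while the genotype differences lie between -0.65 and 0.34.

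The plot of both terms shows CD36 and PEAR1 with a large replicate difference and a genotype difference near 0. VWF was the reverse, with a replicate difference of 0.04 ± 0.10 and a genotype difference of -0.40 ± 0.10 (SE).

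The doxycycline-treated groups were then each set beside the single P95H library labelled uninduced. Both comparisons share that library, so they are not independent, and its spread was assumed to be that of the replicated groups. On group alone 0.0% of 23970 genes passed in either comparison by edgeR's quasi-likelihood test. An unadjusted p under 0.05 was found for 818 genes against P95H and 1122 against WT, among them 3 and 2 of the 30 platelet genes. The uninduced library lay above all 4 doxycycline-treated libraries in 13 of the 30 genes, against 25.6% of all tested genes, and below all 4 in F2R and PPBP, against 22.2%. Some summed markers of other cell types were highest in that library too. Endothelial markers stood at 555 CPM against 374 to 503 CPM and myeloid markers at 180 CPM against 129 to 158 CPM. Fibroblast markers stood at 5.17 CPM against 2.59 to 4.30 CPM. Most of the myeloid sum in that library was CD33, at 166 CPM, and most of the fibroblast sum PDGFRB, at 4.03 CPM. PECAM1, the largest endothelial marker, was highest in WT replicate 2, at 326 against 315 CPM. The erythroid markers, at 384 CPM, and the lymphoid markers, at 1.84 CPM, were within the range of the other libraries. The part of these differences in the platelet genes was not tested. Doxycycline, the induction of the construct and the culture of that 1 sample cannot be told apart.

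The 13 genes were CD36, CD9, GP1BA, GP6, GP9, ITGA2, ITGA2B, LTBP1, P2RX1, PEAR1, TBXAS1, TGFB1 and VCL. They hold 8 of the 12 tested receptors for adhesion and aggregation, all but ITGB3, GP5, SELP and TREML1. ITGA2B, at 808 CPM against 504 to 592 CPM, had a log2 difference of -0.53 ± 0.14 (SE) for P95H and -0.65 ± 0.14 for WT on group alone, and neither passed (edgeR adjusted p = 0.97 and 0.90). Without the filter on low counts it passed for WT, the only platelet gene to do so, where 0.243% of 39538 genes were called lower and 0.0809% higher.

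By its mitochondrial share the library labelled uninduced goes with replicate 2, and fits with the replicate set as a term were made with it placed there and, as an alternative, with replicate 1. ITGA2B was lower than in the library labelled uninduced by edgeR in all 4 of these fits. Placed with replicate 2, its log2 difference was -0.50 for P95H (adjusted p = 2.51e-05) and -0.63 for WT (adjusted p = 1.48e-08), and placed with replicate 1 it was -0.56 (adjusted p = 3.58e-07) and -0.68 (adjusted p = 8.61e-11). GP1BA was lower in WT than in the library labelled uninduced under both placings, by -0.57 and -0.80 on the log2 scale (edgeR adjusted p = 0.00048 and 2.89e-08). For P95H it passed only with replicate 1, at -0.47 (adjusted p = 0.00311). TGFB1 was lower in P95H under both placings, at -0.37 and -0.40 (adjusted p = 0.00668 and 0.000648).

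The counts over the 30 genes depended on the placing. Placed with replicate 2, 2 genes were higher and 3 lower in P95H than in the library labelled uninduced (0.897% and 2.72% of all tested genes), and 6 were higher and 4 lower in WT (1.99% and 3.91%). Placed with replicate 1, 2 were higher and 17 lower in P95H (4.94% and 10.4%), and 3 were higher and 14 lower in WT (5.5% and 9.92%). THBS1, TUBB1, CLU and SELP turned direction with the placing. Against the library labelled uninduced, with it placed in replicate 2, THBS1 stood at 0.95 for WT and 0.29 for P95H on the log2 scale, and with it placed in replicate 1 at -0.53 and -1.19. TUBB1 stood at 0.44 and -0.54 for P95H. For WT, CLU stood at 0.75 with replicate 2 and -0.47 with replicate 1, and SELP at -0.63 and 0.67. Each of these values passed the test of edgeR, so no direction against the library labelled uninduced is given for these 4 genes. PLEK was higher in WT under both placings, at 0.59 and 0.29.

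**Figure D4:**
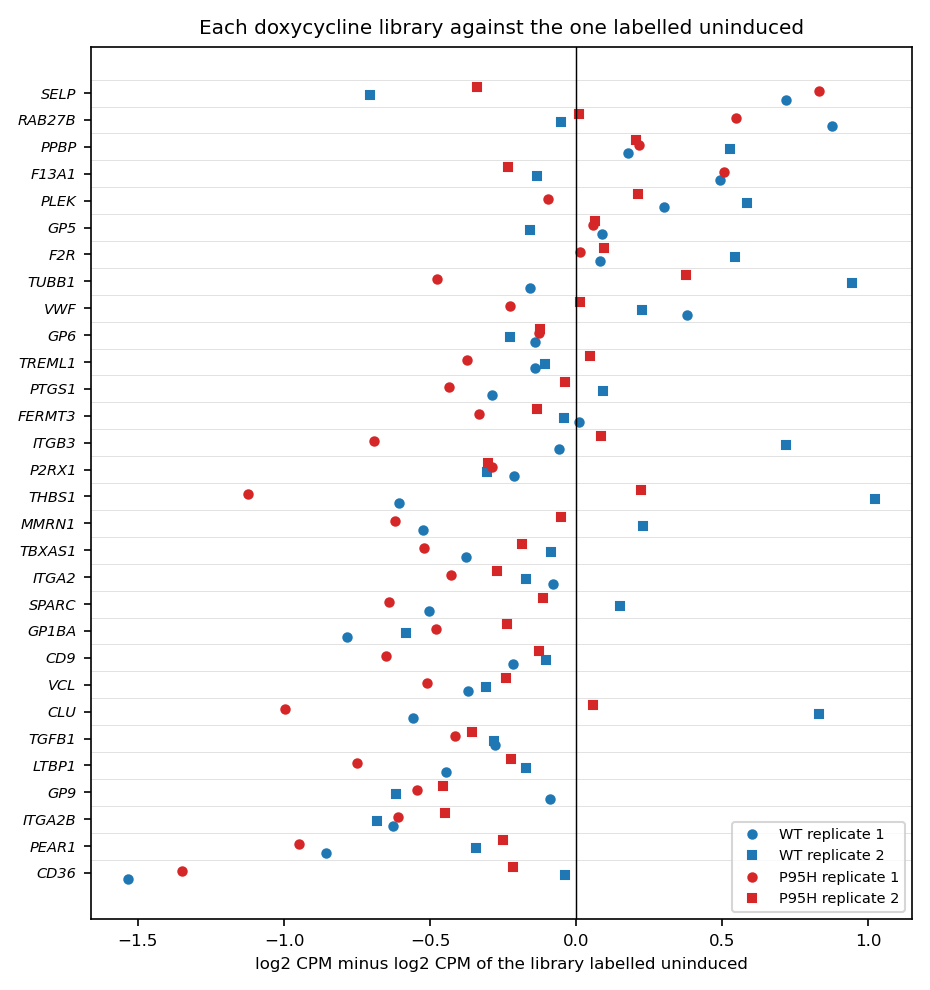
log2 CPM of each doxycycline-treated library minus that of the library labelled uninduced, for the 30 tested genes ordered by the fitted difference of P95H, with circles for replicate 1 and squares for replicate 2. All 4 points of ITGA2B, GP1BA, GP9 and PEAR1 lie left of 0, while those of SELP and RAB27B are parted by replicate number and those of THBS1 and CLU lie on both sides of 0.

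The plot against the library labelled uninduced shows P95H below WT of the same replicate number for THBS1, CLU, ITGB3 and TUBB1 wherever the zero line falls, since each difference there is taken from the same library.

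SRSF2 binding was read from the authors' deposited table of windows that differed between P95H and WT in HITS-CLIP. The table lists 8324 entries at 8100 positions in 2439 genes, and every entry passed limits of 0.05 on the adjusted p and 1 on the size of the log2 change, so windows that did not differ are not in it. Of its positions, 22.3% were higher and 77.7% lower in P95H. The platelet genes held 8 of these windows, in 5 genes, and 7 of the 8 were higher in P95H. Overlapping windows are not separate evidence, and the 8 form 6 merged regions. Of genes with a mean of at least 10 CPM, 18.3% held a window, beside 5 of the 25 platelet genes at that level. The other 25 tested platelet genes held none.

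ITGA2B held 4 windows of the authors' deposited table, all on its minus strand, all higher in P95H and each of 21 bases. The first, at chr17:44374405-44374425, had a deposited mean of 0.13 ± 0.12 CPM (the authors' SEM) in WT and 0.66 ± 0.42 CPM in P95H, a deposited log2 change of 1.82 (adjusted p = 0.0114). The other windows, at chr17:44378680-44378700, chr17:44378687-44378707 and chr17:44378688-44378708, overlap each other. In the authors' deposited table the first of these rose from 0.66 ± 0.63 to 4.17 ± 3.55 CPM (log2 change 2.22, adjusted p = 1.13e-05), and the next from 0.62 ± 0.59 to 4.15 ± 3.56 CPM (log2 change 2.28, adjusted p = 8.82e-06). The means differ several-fold, and the deposited SEMs are nearly as large as the means.

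THBS1 held 1 window of the authors' deposited table, at chr15:39582213-39582233 on its plus strand, 1134 bases from the gene start. Its deposited mean was 0.04 ± 0.02 CPM (SEM) in WT and 0.67 ± 0.27 CPM in P95H, with a log2 change of 3.58 (adjusted p = 9.83e-05). This was the largest deposited change among the platelet genes. In RNA-seq the THBS1 level went the other way within both pairs.

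FERMT3 held the only window of these genes that was lower in P95H in the authors' deposited table. It lies at chr11:64211102-64211122 on the plus strand and had a deposited mean of 5.23 ± 4.30 CPM (SEM) in WT and 1.36 ± 0.79 CPM in P95H (log2 change -2.03, adjusted p = 0.000399). PLEK held 1 window at chr2:68388472-68388492 on the plus strand, which the authors' deposited table assigns to a retained-intron transcript, with 1.38 ± 0.86 CPM in WT and 3.38 ± 2.11 CPM in P95H (log2 change 1.10, adjusted p = 0.033). RAB27B held 1 window at chr18:54893349-54893369 on the plus strand, close to the end of the gene, with 0.13 ± 0.13 and 0.59 ± 0.56 CPM in the authors' deposited table (log2 change 1.81, adjusted p = 0.0141). In 7 of the 8 windows of the platelet genes the ranges of 1 SEM around the deposited means overlapped, and the 1 in which they did not was that of THBS1.

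**Figure D5:**
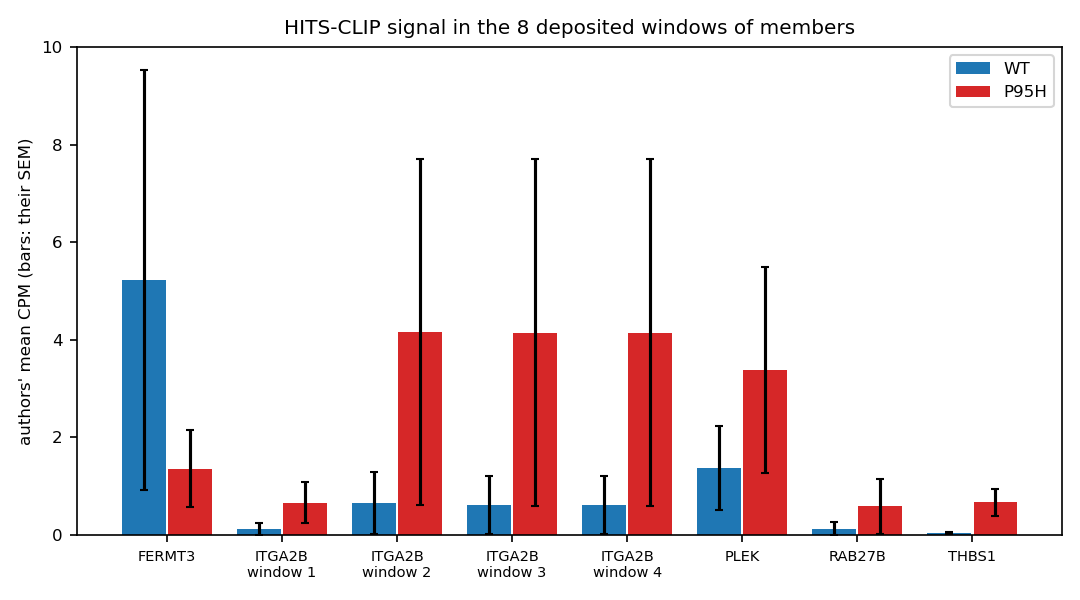
Mean HITS-CLIP CPM of WT (blue) and P95H (red) in the 8 windows of the platelet genes, with bars of 1 SEM, both as in the authors' deposited table; the ITGA2B windows are numbered by position and windows 2 to 4 overlap. P95H is higher in every window but that of FERMT3, and most bars are nearly as long as the mean.

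The plot of windows shows that the largest deposited means belong to FERMT3, ITGA2B and PLEK. ITGB3, CLU and TUBB1, which fell in RNA-seq with the replicate number, had no window in the authors' deposited table, and neither did GP1BA or VWF. The span of TGFB1 held 6 window positions of that table, but 0 lay on its strand, and the table assigns them to genes of the opposite strand.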

How the data were processed

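RNA was measured in 5 samples and SRSF2 binding in 8. For RNA-seq the authors deposited unnormalized counts for each Ensembl gene, with hg38 coordinates per the file headers. GRCh38.p3, TopHat2 2.0.14, STAR 2.5.3a and edgeR are named in the submitters' processing notes without their roles. The counting program, its strand setting and the annotation release are not stated there. The HITS-CLIP table is the authors' own comparison. Per the file headers it holds a log2 change, an adjusted p-value (FDR), and mean CPM with its standard error per genotype, and the total to which the authors' CPM refer is not stated.

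Genes were tested with edgeR 4.0.16 in R 4.3.3 (filterByExpr, TMM factors of 0.958 to 1.04, quasi-likelihood test, two-sided, Benjamini-Hochberg adjusted p under 0.05 over all tested genes) and DESeq2 1.42.0. Printed CPM of RNA-seq are TMM-scaled, and within-pair differences use log2 CPM with a prior count of 2. The fit on group alone had 2 residual degrees of freedom and the fit with the replicate number had 1. Deviations from the group means correlated between libraries of the same number (0.53 across genes). With 2 pairs this does not show that they were paired, so the replicate number stands for the split in mitochondrial share. Alternatives were other scaling, filters, DESeq2, the replicate term and leaving out each library. HITS-CLIP windows were counted once per position with pandas 2.3.3 in Python 3.11.15, and figures were drawn with matplotlib 3.10.9.

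The genes and lists were chosen with earlier results of these data known. Values in every sample are given for genes with a mean of at least 10 CPM or past the threshold in any fit, and other genes by range. Positions of genes are those of the count table. Sequences of the windows were not used here.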

Additional observations from a re-analysis of the deposited data

How the results depend on the processing

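On group alone, the number of the 30 platelet genes called between P95H and WT was 0 with DESeq2, with its size factors, with a stricter filter and without each library in turn. It was 3 without the filter on low counts and 5 with the replicate block, and the replicate block gave 2 calls among the other platelet genes. The median log2 change of -0.15 ranged from -0.31 to -0.0101 over the fits without 1 library, the latter without WT replicate 2. It was -0.056 without P95H replicate 1. Leaving out 1 library from a fit on group alone mixes genotype with the replicate split. The sign of 10 genes held in all 4 such fits, while 20 turned, with lowest and highest log2 changes of -0.75 and 0.87 for CD36, -0.49 and 0.037 for CD9, -1.29 and 0.18 for CLU, -0.46 and 0.33 for F13A1, -0.027 and 0.23 for GP5, -0.41 and 0.13 for GP9, -0.45 and 0.086 for LTBP1, -0.53 and 0.22 for MMRN1, -0.084 and 0.018 for P2RX1, -0.37 and 0.33 for PEAR1, -0.31 and 0.031 for PPBP, -0.35 and 0.067 for PTGS1, -0.57 and 0.36 for RAB27B, -0.51 and 1.08 for SELP, -0.50 and 0.15 for SPARC, -0.29 and 0.047 for TBXAS1, -1.55 and 0.31 for THBS1, -0.25 and 0.18 for TREML1, -0.97 and 0.17 for TUBB1, and -0.17 and 0.10 for VCL. PEAR1 stood at -0.0103 with DESeq2 and the replicate block, an alternative chosen after seeing the data. Against the library labelled uninduced, the replicate block gave 19 calls for P95H with that library in replicate 1 and 5 with it in replicate 2, and 17 and 10 for WT; WT gave 1 call without the filter. P95H stood at 0.29 for THBS1 with that library in replicate 2 and at -0.54 for TUBB1 with it in replicate 1, and WT at -0.53 for THBS1 and -0.094 for TUBB1 with it in replicate 1. Without 1 library, THBS1 ranged from -1.13 to 0.24 and TUBB1 from -0.48 to 0.40 for P95H, and from -0.60 to 1.02 and from -0.15 to 0.94 for WT. At an adjusted p of at most 0.01, 5 of the 8 HITS-CLIP windows remained. The causes of these changes were not tested. With 2 libraries per genotype, and 1 without doxycycline, differences of the size most of these genes show could not be told from the spread.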

Other observations

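A wider list of 74 genes of platelet signalling, secretion and cytoskeleton, of which 64 could be tested, was compared between P95H and WT. On group alone edgeR called 0 of them, and 0 had an unadjusted p under 0.05. DESeq2 gave no call either. Their median log2 change was -0.06, with 41 negative. With the replicate number as a term 2 of the 64 fell and 0 rose, beside 0.195% lower and 0.186% higher over all tested genes. PDE5A, the phosphodiesterase that breaks down cyclic GMP, had 152 and 229 CPM in WT, 105 and 168 CPM in P95H, and 142 CPM in the library labelled uninduced, with a log2 change of -0.47 ± 0.07 (SE; edgeR adjusted p = 0.000457). PRKCB, protein kinase C beta, the enzyme family that phosphorylates pleckstrin, had 276 and 348 CPM in WT, 217 and 260.4 CPM in P95H, and 234 CPM in the library labelled uninduced, with a log2 change of -0.37 ± 0.07 (SE; edgeR adjusted p = 0.00766). PRKCB did not overlap between the doxycycline-treated groups, whereas PDE5A did. Between replicate 2 and replicate 1, 19 of the 64 genes were higher and 6 lower, beside 10.3% and 8.87% of all tested genes.

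The same wider list held 71 windows of the authors' deposited HITS-CLIP table in 12 genes. Of these, 13 were higher and 58 (81.7%) lower in P95H, close to the 77.7% of all positions of that table that were lower. Overlapping windows merge into 43 regions, 11 higher and 32 lower. Of the 49 listed genes with a mean of at least 10 CPM, 11 held a window, beside 18.3% of all genes at that level. MYH9, the nonmuscle myosin heavy chain of platelets, held 22 windows of the authors' deposited table, 21 of them lower in P95H, which merge into 13 regions. PLCB2, a phospholipase C activated by G protein receptors, held 16, of which 15 were lower, in 5 regions, and TPM4, a tropomyosin, held 10, of which 9 were lower, in 9 regions. STXBP2, a regulator of granule fusion, held 2, both higher in P95H. These genes were named after their values in the authors' deposited table were seen.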
